A study of Homo sapiens with 16 samples.

Results

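The genes described here are 35 genes of cholesterol and fatty acid synthesis and of their control by the sterol regulatory element binding proteins (SREBPs). They were taken by symbol from a written list, all 35 were in the count table of 20114 genes, and all 35 passed the filter on low counts. By role they are 16 sterol synthesis enzymes, 6 genes of SREBP control and sterol transport, 5 genes of fatty acid supply and synthesis, and 8 genes of fatty acid elongation, desaturation and activation. RNA was sequenced from Hs578, an established breast cancer line, and from TT642, which the sample labels call rhabdoid tumour cells although the series describes 2 triple-negative breast cancer lines. Each line was studied in 2 forms, as parental cells with no hairpin and as hairpin lines, in which doxycycline switches on a short hairpin RNA against PRRX1, a homeobox transcription factor of mesenchymal cells. In each line the groups were hairpin lines with 3 µg/ml doxycycline (3 libraries, hairpins 1 to 3), the same hairpin lines without doxycycline (3 libraries), parental cells with doxycycline (1 library) and parental cells without it (1 library), 16 libraries in all. The comparison of the first pair of groups asks what changes when doxycycline is given and switches on the hairpin. Lines so treated are called induced, and in this comparison drug and hairpin change together. The parental pair shows what doxycycline does without a hairpin. The titles number the hairpin libraries 1 to 3, and a number was assumed to mark the same hairpin line with and without doxycycline. The labels do not say whether a hairpin line is a clone, whether libraries came from separate cultures or how long doxycycline was given. The p-values therefore reflect library-to-library spread, which may be technical.

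Cells build cholesterol from acetyl-CoA through mevalonate, squalene and lanosterol, and they build fatty acids from the same acetyl-CoA by carboxylation, chain synthesis, elongation and desaturation. When membrane sterols run low, the escort protein SCAP carries SREBPs from the endoplasmic reticulum to the Golgi, where they are cut and released to switch on most genes of both pathways. INSIG proteins hold SCAP back when sterols are plentiful, and INSIG1 is itself an SREBP target. In tumour lines the pathway supplies membrane lipid for growing cells.

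Total counts were 13461527 to 24672906 per library. PRRX1, the targeted gene, had 37.1, 72.8 and 51.0 CPM (read counts scaled to library size with TMM factors) in Hs578 hairpin lines with doxycycline, against 291, 227 and 262 CPM without it, and 298 and 289.8 CPM in the parental pair with and without doxycycline. In TT642 hairpin lines PRRX1 had 265, 184 and 513 CPM with doxycycline, against 1213, 1409 and 1301 CPM without it, and 1533 and 1484 CPM in the parental pair. The summed level of 8 mesenchymal markers was 25098 to 32578 CPM in induced Hs578 hairpin lines, 20115 to 22423 CPM in uninduced ones and 11064 to 13409 CPM over all TT642 libraries. In the parental Hs578 pair it was 38500.4 CPM with doxycycline, above every induced hairpin library, against 19903 CPM without doxycycline. In TT642 most of the sum was VIM, at 9915 to 11007 CPM. There FN1, SPARC, COL1A2, THY1 and PDGFRB each had at most 45.4 CPM, against at least 125 CPM in Hs578 libraries. The 9 epithelial markers summed to 246 to 441 CPM over the Hs578 libraries and to 1.81 to 5.34 CPM over the TT642 libraries. The Hs578 sum was nearly all KRT18 (185 to 401 CPM) and KRT8 (27.7 to 56.4 CPM). The others, EPCAM and CDH1 among them, had at most 3.39 CPM in any Hs578 library. Of the markers of tissues known for lipid synthesis, 8 adipocyte markers summed to 3.02 to 55.9 CPM with LEP at 0 throughout. The 7 hepatocyte markers summed to 0.172 to 10.6 CPM. PPARG alone had 30.9 to 44.9 CPM in Hs578 libraries, and HNF4A alone had 6.73 to 10.1 CPM in TT642 libraries.

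Levels between genes were compared per length, as the deposited FPKM, over the 4 libraries of a line without doxycycline. The desaturase SCD had the highest level of the 35 genes in both lines, with a median of 511 FPKM (488 to 533) in Hs578 and 439 FPKM (383 to 464) in TT642. Next in Hs578 came the squalene synthase FDFT1 at 253 FPKM, the fatty acid activating enzyme ACSL3 at 157 FPKM, INSIG1 at 113 FPKM and the squalene epoxidase SQLE at 108 FPKM. The ranges of INSIG1 (102 to 119 FPKM) and SQLE (101 to 116 FPKM) overlapped, so their order was not resolved. In TT642 the next medians were those of ACSL3 at 125 FPKM, the elongase ELOVL5 at 102 FPKM and the desaturase FADS1 at 90.8 FPKM, followed by the SREBP gene SREBF1 at 76.1 FPKM. The TT642 ranges of ACSL3 (109 to 147 FPKM) and ELOVL5 (93.6 to 112 FPKM) overlapped, as did those of SREBF1 (71.0 to 82.5 FPKM) and FADS2 (56.5 to 78.5 FPKM), so these orders were not resolved either. The lowest were the sterol reductase TM7SF2 at 0.791 FPKM in Hs578 and the malic enzyme ME1, listed at 0 in all 4 TT642 libraries.

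The sterol branch stood at a higher level in Hs578 than in TT642. Between uninduced hairpin lines (3 libraries each), 28 of the 35 genes were higher in Hs578 and 5 were lower, at an adjusted p under 0.05 in edgeR's quasi-likelihood test. Over all 14035 genes tested 80.8% were called, 41% higher and 39.7% lower, so the share called is not particular to these genes, while their median log2 difference was 1.11 against 0.0064 over all genes. All 16 sterol synthesis enzymes were called, 15 of them higher, with a median of 1.95. The 8 genes of elongation, desaturation and activation had a median of 0.27, with 4 higher, 2 lower and 2 not called.

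INSIG1 had 363, 307 and 337 CPM in uninduced Hs578 hairpin lines, against 12.8, 11.9 and 11.5 CPM in TT642 lines, a log2 difference of 4.80 ± 0.15 (SE, edgeR adjusted p = 5.96e-13). The Hs578 values of this sterol-sensing brake lay far above those of TT642, with no overlap. ACAT2, the cytosolic thiolase that joins acetyl-CoA units at the head of the mevalonate pathway, had 122, 122 and 127 CPM in Hs578 lines, against 9.13, 9.38 and 9.73 CPM in TT642 lines (3.71 ± 0.092, edgeR adjusted p = 7.12e-14). LSS, which folds squalene epoxide into lanosterol, had 170.0, 165 and 170.4 CPM in Hs578 lines, against 22.4, 18.7 and 22.5 CPM in TT642 lines (2.99 ± 0.12, edgeR adjusted p = 9.87e-12). Both enzymes were higher in every Hs578 library. SQLE, the epoxidase that precedes LSS, averaged 353 ± 30.7 CPM in Hs578 lines, against 57.6 ± 3.18 CPM in TT642 lines (SD, n = 3 each), and DHCR7, the last reductase of one route to cholesterol, averaged 174 ± 2.10 CPM against 30.5 ± 3.40 CPM.

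TM7SF2, a sterol reductase that shares its reaction with another enzyme, was the 1 sterol enzyme lower in Hs578, with 0.872, 0.853 and 1.38 CPM in Hs578 lines, against 5.56, 7.44 and 6.95 CPM in TT642 lines (-2.67 ± 0.25, edgeR adjusted p = 9.88e-08). The other 4 lower genes were FADS2, the desaturase that starts the synthesis of polyunsaturated fatty acids (-2.35 ± 0.13), ACACA, the acetyl-CoA carboxylase (-0.79 ± 0.11), SREBF1 (-0.74 ± 0.19) and the elongase ELOVL6 (-0.32 ± 0.13, adjusted p = 0.0349 in edgeR). All 5 were below TT642 in every library. ME1, which makes NADPH for fatty acid synthesis, had 149, 120.0 and 135 CPM in Hs578 lines and no count in any of the 6 TT642 hairpin libraries. Against a floor of 3 counts per library this makes ME1 at least 705-fold higher in Hs578. FADS1 (log2 difference 0.024 ± 0.081) and ELOVL5 (0.094 ± 0.086) were not called, and both turned in sign on the FPKM scale. All 28 genes called higher lay above TT642 in every library and all 5 called lower lay below it, beside 42.7% and 41.4% of all genes. Without hairpin 1 in either line, 3 genes rather than 5 were called lower. ELOVL6 kept its call in 13 of 22 alternatives and lost it with DESeq2 and with limma on FPKM. SCAP, called higher, also kept its call in 13 of 22. SREBF2, ACSL1 and ACSL3, called higher too, lost their calls with limma on FPKM.

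**Figure D1:**
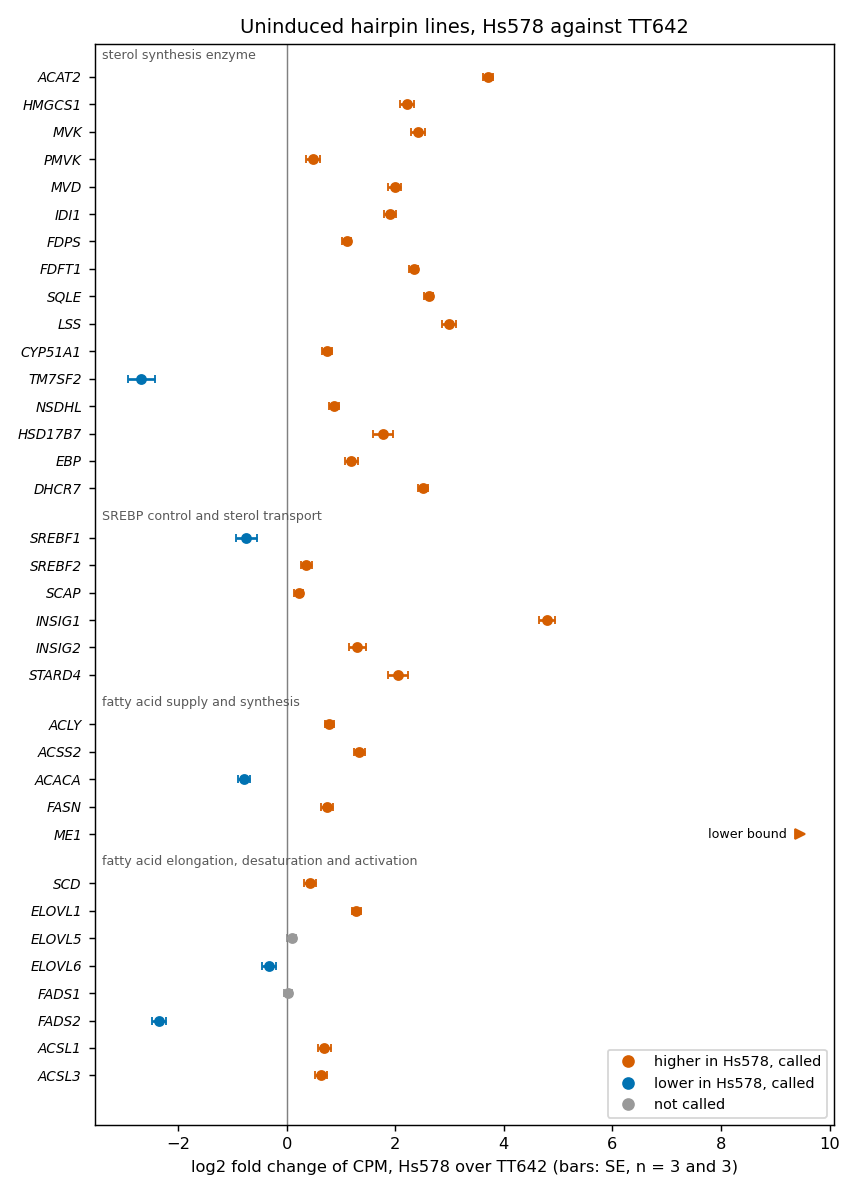
Log2 fold change of CPM between uninduced Hs578 and TT642 hairpin lines (horizontal axis) for each of the 35 genes, grouped by role; points are edgeR estimates, bars are SE, n = 3 libraries per line, and the arrow marks the lower bound of ME1. Of 16 sterol synthesis enzymes 15 lie to the right of 0 (higher in Hs578), while ELOVL5 and FADS1 lie near 0 and TM7SF2 and FADS2 lie far to the left.

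When the hairpin was induced in Hs578, 17 of the 35 genes fell and 2 rose, beside 14.1% of all 14035 genes tested that were called lower and 15.2% called higher (29.3% in either direction). On the deposited FPKM with a pseudocount of 1, tested with limma, the split over all genes was 1352 higher and 3112 lower, beside 2139 higher and 1979 lower in edgeR. The median log2 fold change of the 35 genes was -0.29, against 0 over all genes. Of the 35 estimates 26 were below 0, beside 6940 of all 14035 genes tested. In 20 genes all 3 induced libraries lay below all 3 uninduced ones, and in 3 genes all lay above, beside 21.9% and 22.1% of all genes. The summed level of the 35 genes was 6698, 6708 and 6096 CPM in induced Hs578 lines, against 9374, 8569.5 and 8914 CPM in uninduced ones. SCD alone made up a large part of these sums, and without it they were 4570.5, 4510.1 and 4326 CPM in induced lines, against 5851, 5379 and 5694 CPM in uninduced ones. Either way the induced libraries were all below the uninduced ones. In bulk RNA, fewer cells that express a gene and less of its RNA per cell cannot be told apart. Mitochondrial transcripts took 3.18%, 4.27% and 5.44% of counts in induced Hs578 lines, against 2.79%, 2.29% and 2.16% in uninduced ones and 4.16% and 2.73% in the parental pair with and without doxycycline, and their part in the results was not tested.

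**Figure D2:**
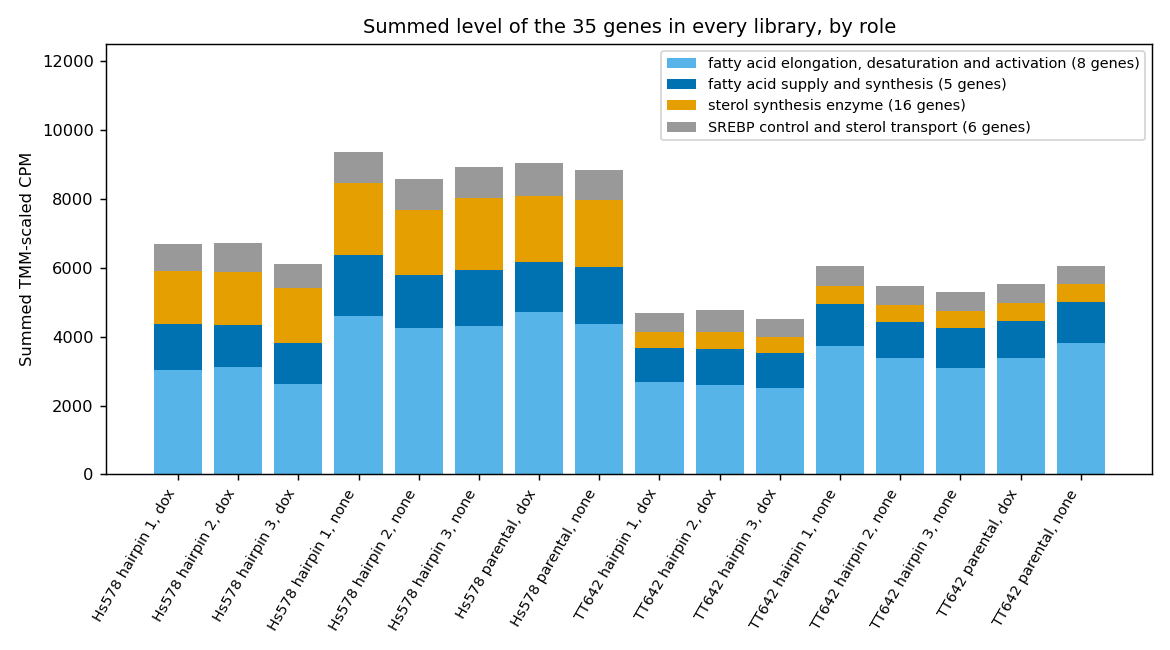
Summed TMM-scaled CPM of the 35 genes in each of the 16 libraries (vertical axis), stacked by role. The 3 induced Hs578 hairpin libraries reach 6698, 6708 and 6096 CPM, below the uninduced ones and both parental libraries of that line, and sterol synthesis enzymes make up a smaller layer in every TT642 library than in any Hs578 library.

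Of the 16 sterol synthesis enzymes 8 fell, 2 rose and 6 were not called in Hs578, beside 14.1% lower and 15.2% higher over all genes. Those that fell included the 4 consecutive enzymes that make squalene, oxidise it, close it to lanosterol and demethylate lanosterol (FDFT1, SQLE, LSS and CYP51A1). HMGCS1, which makes the HMG-CoA from which mevalonate comes, had 128, 128 and 147 CPM in induced Hs578 lines, against 209.6, 159 and 182 CPM in uninduced ones, a log2 change of -0.45 ± 0.12 (edgeR adjusted p = 0.0103). The hairpin 1 line had the highest uninduced value. SQLE had 219, 209 and 232 CPM in induced lines, against 382, 321 and 355 CPM in uninduced ones (-0.68 ± 0.082, edgeR adjusted p = 0.00022), with a wide gap between the groups. LSS had 125, 127 and 106 CPM in induced lines, against 170.0, 165 and 170.4 CPM in uninduced ones (-0.50 ± 0.11, edgeR adjusted p = 0.00507). CYP51A1, the demethylase that acts on lanosterol, had 124, 105 and 137 CPM in induced lines, against 174, 176 and 171 CPM in uninduced ones (-0.51 ± 0.090, edgeR adjusted p = 0.00156). Neither gene's groups overlapped, and the uninduced values were tight in both. The other 4 that fell were ACAT2 (-0.32 ± 0.079), the isomerase IDI1 (-0.29 ± 0.10, adjusted p = 0.0428 in edgeR), FDFT1, which makes squalene (-0.32 ± 0.080), and DHCR7 (-0.37 ± 0.084). The IDI1 groups overlapped, and its call was kept in 13 of 23 alternatives and lost with the Hs578 libraries alone.

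The 2 that rose, named after their values were seen, were EBP and PMVK. EBP, the isomerase that moves a double bond in the sterol ring, had 21.6, 22.4 and 20.6 CPM in induced lines, against 14.9, 17.4 and 15.4 CPM in uninduced ones (0.44 ± 0.11, edgeR adjusted p = 0.00977). PMVK, the kinase that phosphorylates mevalonate phosphate, had 20.9, 23.9 and 23.7 CPM in induced lines, against 15.7, 17.4 and 18.2 CPM in uninduced ones (0.42 ± 0.12, edgeR adjusted p = 0.0193). Every induced library was above every uninduced one in both genes. Neither was called with limma on FPKM, with a highest adjusted p of 0.745 for EBP and 0.104 for PMVK over the alternatives tried. Of 23 alternatives, EBP kept its call in 18 and PMVK in 15. The mevalonate kinase MVK, the decarboxylase MVD, the farnesyl diphosphate synthase FDPS, NSDHL, which helps remove methyl groups, and TM7SF2 were not called, with estimates of 0.016 to 0.36. HSD17B7, a sterol ketoreductase, was not called either (-0.46 ± 0.17, edgeR adjusted p = 0.0578), although its 3 induced libraries were below the 3 uninduced ones, and was called with the replicate block (adjusted p = 0.0364).

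Among the 6 genes of SREBP control and sterol transport, INSIG1 and STARD4 fell, while the genes of the SREBPs, of SCAP and of INSIG2 were not called. Over all genes 14.1% were called lower and 29.3% in either direction, so 2 of 6 is near the latter share. SREBF1, the gene of the SREBP that acts mainly on fatty acid synthesis, had 165, 176 and 95.6 CPM in induced Hs578 lines, against 144, 185 and 157 CPM in uninduced ones (-0.16 ± 0.19, edgeR adjusted p = 0.587). Its induced value was low in the hairpin 3 line alone, and the groups overlapped. SREBF2, the gene of the SREBP that acts mainly on sterol synthesis, had 224, 241 and 205 CPM in induced lines, against 219.6, 232 and 226 CPM in uninduced ones (-0.017 ± 0.098, edgeR adjusted p = 0.928). SCAP had 106, 99.5 and 89.3 CPM in induced lines, against 90.7, 95.3 and 94.0 CPM in uninduced ones (0.076 ± 0.087, edgeR adjusted p = 0.552), and both genes overlapped between the groups. The sign of the SCAP change turned on the FPKM scale, and those of SREBF1 and SREBF2 turned without the induced hairpin 3 library, to 0.073 and 0.042.

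INSIG1 had 238, 240.4 and 227 CPM in induced lines, against 363, 307 and 337 CPM in uninduced ones (-0.52 ± 0.12, edgeR adjusted p = 0.00728). Its relative INSIG2, which is not known as a strong SREBP target, had 21.0, 24.0 and 20.1 CPM in induced lines, against 25.9, 21.2 and 24.9 CPM in uninduced ones (-0.15 ± 0.15, edgeR adjusted p = 0.489). The INSIG1 values did not overlap between the groups, whereas those of INSIG2 did. STARD4, a carrier that moves cholesterol between membranes, had 25.9, 34.2 and 35.9 CPM in induced lines, against 65.7, 49.1 and 54.7 CPM in uninduced ones (-0.82 ± 0.17, edgeR adjusted p = 0.0045). Its estimate was the largest in size among the 35 genes, and the hairpin 1 line had both the highest uninduced and the lowest induced value. The log2 ratios of STARD4 were -1.34, -0.52 and -0.61 in the pairs of hairpins 1, 2 and 3. Its call was kept in 22 of 23 alternatives and lost without hairpin 1 in both lines (edgeR adjusted p = 0.0643). That fit lost 6 of the 19 calls among the 35 genes.

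Of the 5 genes of fatty acid supply and synthesis 3 fell, beside 14.1% of all genes. ACACA, which makes malonyl-CoA, had 181, 154 and 133 CPM in induced Hs578 lines, against 254, 216 and 228 CPM in uninduced ones (-0.58 ± 0.11, edgeR adjusted p = 0.00182). FASN, the synthase that builds palmitate, had 521, 449.9 and 435 CPM in induced lines, against 792, 658 and 715 CPM in uninduced ones (-0.62 ± 0.11, edgeR adjusted p = 0.00158). ME1 had 102, 98.3 and 79.7 CPM in induced lines, against 149, 120.0 and 135 CPM in uninduced ones (-0.53 ± 0.12, edgeR adjusted p = 0.00766). In all 3 genes the lowest induced value was that of the hairpin 3 line, and the groups did not overlap. The genes that make acetyl-CoA in the cytosol, ACLY from citrate (-0.12 ± 0.082) and ACSS2 from acetate (-0.25 ± 0.095, edgeR adjusted p = 0.0625), were not called.

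Of the 8 genes of elongation, desaturation and activation 4 fell, beside 14.1% of all genes. SCD, which makes monounsaturated fatty acids, had 2127, 2198 and 1771 CPM in induced Hs578 lines, against 3523, 3190.4 and 3219.7 CPM in uninduced ones (-0.70 ± 0.11, edgeR adjusted p = 0.000786). ACSL3, which loads long-chain fatty acids onto coenzyme A, had 200.1, 188 and 184 CPM in induced lines, against 290.2, 267 and 285 CPM in uninduced ones (-0.56 ± 0.12, edgeR adjusted p = 0.00348). The groups of both genes were far apart. ELOVL6, the elongase that follows FASN, had 24.6, 22.5 and 18.7 CPM in induced lines, against 29.4, 31.0 and 29.8 CPM in uninduced ones (-0.45 ± 0.13, edgeR adjusted p = 0.0205). ACSL1, a relative of ACSL3, averaged 43.8 ± 7.58 CPM in induced lines and 57.9 ± 3.58 CPM in uninduced ones (SD, n = 3 each; -0.40 ± 0.11, edgeR adjusted p = 0.0175), and lost its call on the FPKM scale. ELOVL1, ELOVL5, FADS1 and FADS2 were not called, with estimates of -0.22 to 0.15.

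The calls in Hs578 depended on the hairpin 3 line, for all genes as for these. Without hairpin 3 in both lines, 5 genes rather than 17 were called lower and none higher, and 14 of the 19 calls were lost. The loss was not particular to these genes, since over all genes 464 rather than 1979 were called lower and 376 rather than 2139 higher. SQLE, CYP51A1, SCD and ACSL3 kept their calls in all 23 alternative settings and left-out libraries tried.

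**Figure D3:**
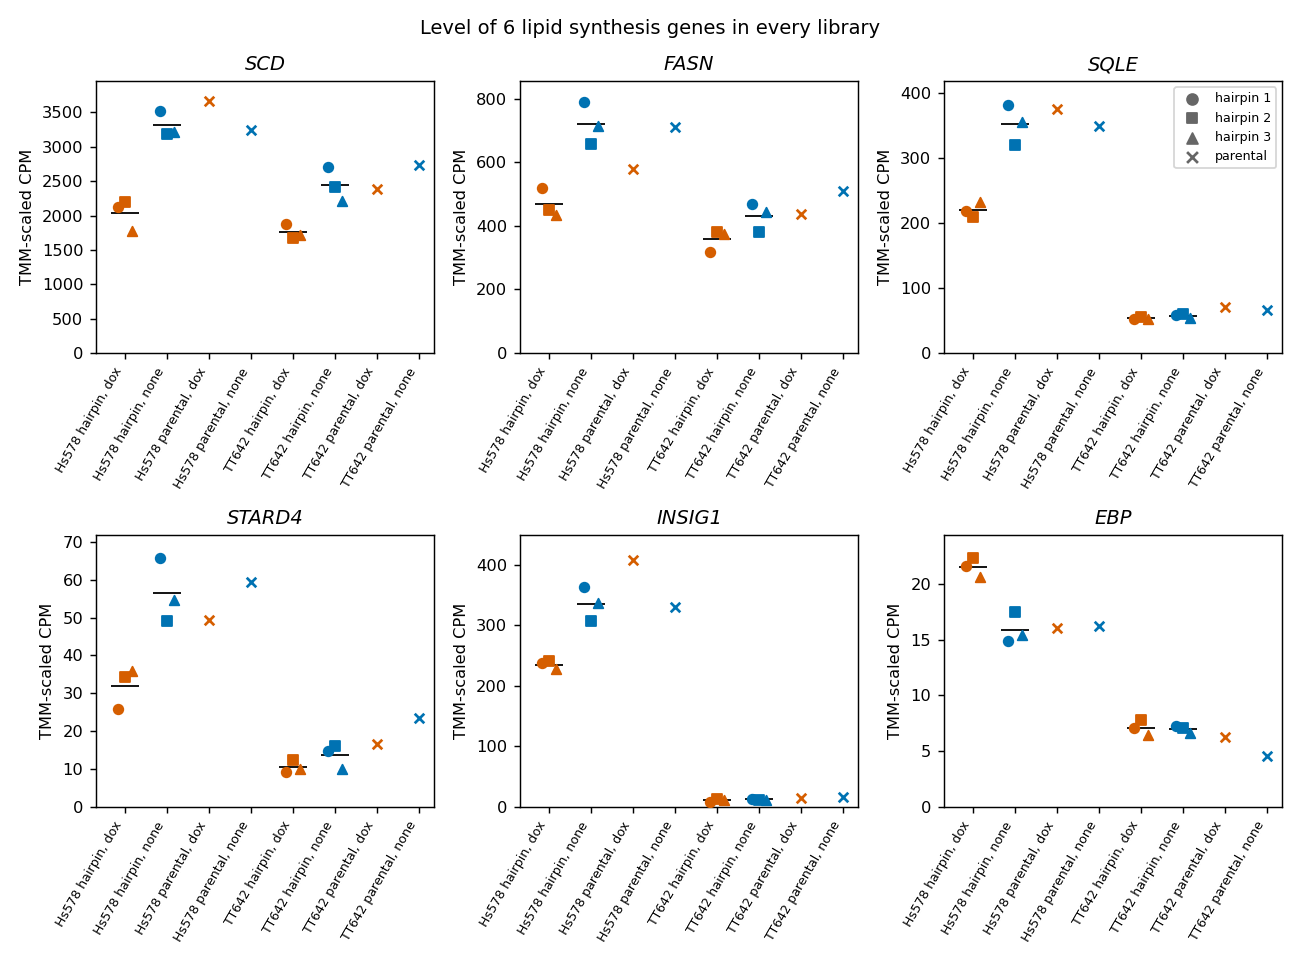
TMM-scaled CPM (vertical axes, from 0) of 6 genes in every library, by line, hairpin status and doxycycline; symbols mark the hairpin line or parental cells and horizontal bars the mean of 3 hairpin libraries. SCD, FASN, SQLE, STARD4 and INSIG1 lie lower in the 3 induced Hs578 hairpin libraries than in the uninduced ones and EBP lies higher, while INSIG1 and SQLE lie near the bottom of the axis in every TT642 library.

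Stretches of sequence around the starts of 6 of these genes are given here because the genes moved in different ways: INSIG1, STARD4, SCD and LSS fell in Hs578, EBP rose and SREBF2 was not called. Each window holds 250 bases before to 50 bases after the start of the gene, written 5′ to 3′ on the strand of the gene, from RefSeq on GRCh38.p14, whereas the deposited values were made on hg19. The windows are chr7:155297628-155297927 on the plus strand (INSIG1), chr5:111512486-111512785 on the minus strand (STARD4), chr10:100346983-100347282 on the plus strand (SCD), chr21:46228725-46229024 on the minus strand (LSS), chrX:48521558-48521857 on the plus strand (EBP) and chr22:41832855-41833154 on the plus strand (SREBF2). Capitals mark matches, on either strand, to 3 motifs: the sterol element core TCACNCCAC of SREBPs, the CCAAT box of NF-Y, a factor known to work beside SREBPs, and the E-box CACGTG, which some SREBPs also bind.
INSIG1: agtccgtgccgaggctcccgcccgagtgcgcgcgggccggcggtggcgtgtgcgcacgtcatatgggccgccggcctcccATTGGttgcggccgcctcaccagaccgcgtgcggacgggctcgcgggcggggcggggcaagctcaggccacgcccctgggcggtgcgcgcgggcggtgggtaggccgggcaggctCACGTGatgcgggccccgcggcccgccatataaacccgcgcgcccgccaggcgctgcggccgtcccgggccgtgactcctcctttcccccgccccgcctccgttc
STARD4: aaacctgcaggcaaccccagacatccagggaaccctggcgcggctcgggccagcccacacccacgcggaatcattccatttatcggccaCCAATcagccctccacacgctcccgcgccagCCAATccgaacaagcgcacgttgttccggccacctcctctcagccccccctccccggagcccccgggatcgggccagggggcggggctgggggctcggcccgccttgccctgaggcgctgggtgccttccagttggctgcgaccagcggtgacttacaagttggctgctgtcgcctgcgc
SCD: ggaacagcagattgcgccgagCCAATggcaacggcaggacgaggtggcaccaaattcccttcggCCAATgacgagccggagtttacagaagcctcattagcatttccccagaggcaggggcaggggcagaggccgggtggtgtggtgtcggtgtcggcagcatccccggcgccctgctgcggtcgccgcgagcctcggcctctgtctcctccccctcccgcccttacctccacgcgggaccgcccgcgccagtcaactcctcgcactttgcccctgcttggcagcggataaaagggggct
LSS: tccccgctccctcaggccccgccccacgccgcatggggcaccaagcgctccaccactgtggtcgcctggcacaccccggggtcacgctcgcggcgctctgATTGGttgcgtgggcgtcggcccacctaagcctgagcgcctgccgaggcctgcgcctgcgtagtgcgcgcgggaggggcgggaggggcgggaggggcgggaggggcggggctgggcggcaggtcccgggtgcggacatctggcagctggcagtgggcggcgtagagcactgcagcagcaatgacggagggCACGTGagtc
EBP: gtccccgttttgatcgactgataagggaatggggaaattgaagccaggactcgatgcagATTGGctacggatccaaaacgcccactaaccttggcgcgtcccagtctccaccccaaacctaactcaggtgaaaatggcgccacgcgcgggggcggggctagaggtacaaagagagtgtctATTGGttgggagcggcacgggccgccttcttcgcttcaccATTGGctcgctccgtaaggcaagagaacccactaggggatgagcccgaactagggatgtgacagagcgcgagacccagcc
SREBF2: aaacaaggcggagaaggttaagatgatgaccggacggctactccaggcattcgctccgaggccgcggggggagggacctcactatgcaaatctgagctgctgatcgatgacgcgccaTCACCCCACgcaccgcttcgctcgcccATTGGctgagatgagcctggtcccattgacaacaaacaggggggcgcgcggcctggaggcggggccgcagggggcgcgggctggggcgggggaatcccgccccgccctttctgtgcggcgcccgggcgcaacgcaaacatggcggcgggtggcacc

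Windows were given for 31 of the 35 genes, 45 windows in all since some genes have several starts. ACAT2, FDFT1, SQLE and FASN had no window. The CCAAT box was in 26 of the 45 windows (57.8%), beside 34.6% of all 35116 windows of the same length. The sterol element core was in 2 windows (4.44%), those of ACSL1 and SREBF2, beside 1.13% of all windows. The E-box was in 4 windows (8.89%), those of ELOVL5, INSIG1, LSS and SCAP, beside 7.26% of all. The motifs do not overlap each other in the sequences shown. EBP, which rose, holds 3 CCAAT boxes, and STARD4 and SCD, which fell, hold 2 each. These matches are a description of letters in short windows and say nothing of binding.

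The parental Hs578 pair, a single library with and without doxycycline, gives values but no test. Its median log2 ratio over the 35 genes was -0.044, beside -0.30, -0.18 and -0.33 in the pairs of hairpins 1, 2 and 3. The summed level was 9054 CPM in parental cells with doxycycline, against 8837 CPM without it. Without SCD the direction turned, with 5384 CPM with doxycycline and 5591 CPM without it. Of the 35 genes, 17 had a parental ratio above all 3 hairpin ratios, 6 had one below and 12 had one within their range, beside 30.9%, 33.7% and 35.4% of all genes tested. The 17 genes that fell were chosen by their low hairpin ratios, which by itself favours a higher parental ratio. Of these, 12 had a parental ratio above all 3 hairpin ratios, 4 had one within their range (ACACA, ACSL1, CYP51A1 and LSS) and 1 had one below (ACAT2), beside 47.4%, 30.8% and 21.8% of all 1979 genes called lower. SCD had log2 ratios of -0.73, -0.54 and -0.86 in the pairs of hairpins 1, 2 and 3, against 0.18 in parental cells. INSIG1 had -0.61, -0.35 and -0.57 in the hairpin pairs, against 0.31 in parental cells, and SQLE had -0.81, -0.62 and -0.61, against 0.11. In these 3 genes the parental ratio had the opposite sign. Of the 17 genes that fell, however, 10 had a parental ratio below 0, beside 51.6% of all genes tested. LSS had -0.44, -0.37 and -0.69 in the hairpin pairs, against -0.55 in parental cells, and ACACA had -0.49, -0.49 and -0.77, against -0.54. Both parental ratios lay within the range of the hairpin pairs. SREBF1 and SREBF2 differed in sign in parental cells, with ratios of -0.78 and 0.55.

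**Figure D4:**
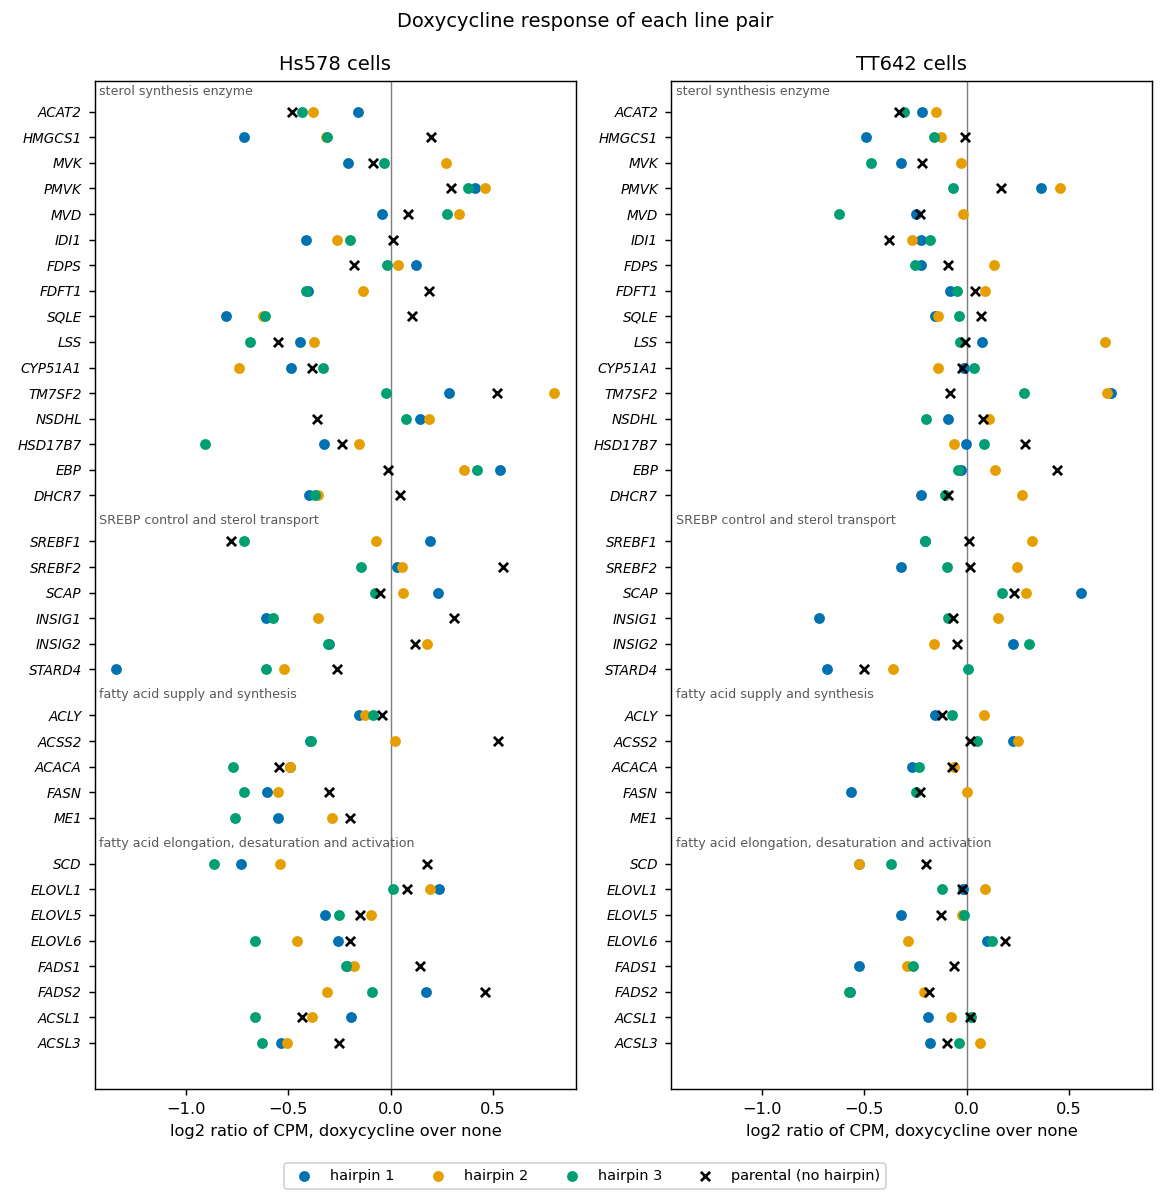
Log2 ratio of CPM with doxycycline over without it (horizontal axes) for each of the 35 genes, Hs578 left and TT642 right. Each point is a pair of libraries of 1 hairpin line, and crosses are parental pairs. ME1 is not drawn in TT642, where no hairpin library had a count of it and the parental library with doxycycline had 1. In Hs578 the cross lies to the right of all 3 points for 12 of the 17 genes that fell, and in TT642 it does so for 4 of the 16 of those genes that are drawn.

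Net of the single parental pair, the Hs578 effect passed the test in none of the 35 genes with edgeR, beside 0.406% of all genes (0.292% higher and 0.114% lower), and 10 of the 35 had an unadjusted p under 0.05, beside 14.2% of all genes. DESeq2 called 5 lower (INSIG1, FDFT1, SCD, ACSS2 and SQLE), beside 161 higher and 134 lower over all genes. The fit with the hairpin line as a replicate block called 2 lower, SCD with an adjusted p of 0.049 and SQLE with 0.0363. Over all genes that fit called 86 higher and 54 lower. The median net log2 effect was -0.22, against 1e-04 over all genes. The 6 genes named here were chosen after their values were seen. SCD had a net effect of -0.88 ± 0.22 (edgeR adjusted p = 0.0922), SQLE of -0.79 ± 0.16 (edgeR adjusted p = 0.0553), INSIG1 of -0.82 ± 0.25 (edgeR adjusted p = 0.145) and ACSS2 of -0.77 ± 0.19 (edgeR adjusted p = 0.0922). For LSS the net effect was 0.053 ± 0.22 and for CYP51A1 it was -0.12 ± 0.18 (edgeR adjusted p = 0.971 and 0.833). Each net effect rests on 1 parental library per condition, whose spread was assumed to be that of the hairpin groups. ACSS2 had 84.4 CPM in parental cells with doxycycline, against 58.8 CPM without it. Its parental log2 ratio of 0.52 was the most positive among the 5 genes of fatty acid supply and synthesis, where ACACA had -0.54. Without hairpin 2, 2 genes (ACSS2 and SQLE) were called, beside 65 higher and 74 lower over all genes. Without either Hs578 hairpin 2 library alone 1 was called. Over all genes 26 were then higher and 12 lower without the uninduced library, and 74 and 54 without the induced one.

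In TT642 none of the 35 genes was called by edgeR when the hairpin was induced, and 8 had an unadjusted p under 0.05, beside 7.82% of all genes. Over all genes tested 4, or 0.0285%, were called, with 0.0143% in each direction, and the replicate block called 24 higher and 22 lower. DESeq2 called 2 of the 35 lower, SCD and FADS1, beside 42 higher and 34 lower over all genes. The median log2 change of the 35 genes was -0.054, against 0 over all genes. Of the 35 estimates 27 were below 0, beside 6772 of all 14035 genes tested and 26 of the 35 in Hs578. In 9 genes all 3 induced libraries lay below all 3 uninduced ones, beside 6.31% of all genes. In 3 genes all lay above, beside 8.54% of all genes. The sums over the 35 genes were 4688, 4782 and 4516 CPM in induced TT642 lines, against 6063, 5458 and 5311 CPM in uninduced ones and 5535 and 6066 CPM in the parental pair with and without doxycycline. Without SCD the sums were 2807, 3103 and 2804 CPM in induced lines, against 3355, 3039.8 and 3099.5 CPM in uninduced ones, and then overlapped.

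The TT642 genes named here were chosen after their values were seen. SCD had 1880.5, 1679 and 1712 CPM in induced TT642 lines, against 2707, 2418 and 2211 CPM in uninduced ones (-0.48 ± 0.11, edgeR adjusted p = 0.168). FADS1, a desaturase of polyunsaturated fatty acids, had 167, 193 and 181 CPM in induced lines, against 241, 236 and 217 CPM in uninduced ones (-0.36 ± 0.081, edgeR adjusted p = 0.168). FADS2 had 105, 111 and 85.6 CPM in induced lines, against 157, 128 and 127 CPM in uninduced ones (-0.45 ± 0.12, edgeR adjusted p = 0.271). The groups of these 3 desaturases did not overlap, and their parental log2 ratios were -0.20, -0.063 and -0.18. SCAP had 111, 98.6 and 95.0 CPM in induced lines, against 75.5, 80.6 and 84.4 CPM in uninduced ones (0.34 ± 0.086, edgeR adjusted p = 0.238), again without overlap, and 83.9 and 71.5 CPM in the parental pair with and without doxycycline. INSIG1, at 7.72, 13.2 and 10.8 CPM in induced lines and 12.8, 11.9 and 11.5 CPM in uninduced ones, overlapped between the groups. So did SREBF1, at 254, 311 and 235 CPM in induced lines and 292, 249 and 271 CPM in uninduced ones, and SREBF2, at 154, 192 and 161 CPM and 192, 162 and 173 CPM. INSIG2 had 11.3, 10.6 and 9.23 CPM in induced lines and 9.69, 11.9 and 7.45 CPM in uninduced ones.

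The difference between the lines was tested itself. The induction effect was lower in Hs578 than in TT642 for 3 of the 35 genes, all of them sterol enzymes, and higher for none, beside 2.48% and 2.76% of all genes (5.24% in either direction). Over all genes the split was 387 higher and 348 lower, against 875 higher and 888 lower with the replicate block and 329 higher and 789 lower with limma on FPKM with a pseudocount of 1. SQLE differed by -0.57 ± 0.12 (edgeR adjusted p = 0.024), LSS by -0.75 ± 0.16 (edgeR adjusted p = 0.0281) and CYP51A1 by -0.47 ± 0.13 (edgeR adjusted p = 0.0486). In induced TT642 lines SQLE had 52.4, 54.8 and 52.9 CPM, against 58.3, 60.4 and 54.2 CPM in uninduced ones. LSS had 23.6, 29.8 and 22.0 CPM in induced TT642 lines, against 22.4, 18.7 and 22.5 CPM in uninduced ones, with a high induced value in the hairpin 2 line. CYP51A1 had 104, 101 and 99.3 CPM in induced TT642 lines, against 105, 111 and 97.0 CPM in uninduced ones. In TT642 the groups of these 3 genes overlapped, while in Hs578 they were apart. The parental pair of Hs578 was low for LSS and CYP51A1 too, with ratios of -0.55 and -0.38, against -0.0064 and -0.023 in parental TT642. The fit with the replicate block called 5 genes lower (also ACSL3 and ACACA), and DESeq2 called 7, beside 888 and 737 lower over all genes. Without hairpin 1, 2 or 3 in both lines none of the 35 was called. Over all genes 75 were higher and 48 lower without hairpin 1. These counts were 11 and 27 without hairpin 2, and 0 and 2 without hairpin 3. With single libraries left out, the count of the 35 was lowest, at 0, without an uninduced hairpin 1 or 3 library of either line. Over all genes 21 to 65 were then higher and 37 to 93 lower. The count of the 35 was highest, at 6, without the induced hairpin 1 library of Hs578. Over all genes 1158 were then higher and 924 lower.

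Other genes of the pathway gave a mixed picture in Hs578. Of 32 further enzymes of sterol, fatty acid and glycerolipid synthesis that were tested, 6 were higher and 7 lower in induced lines, beside 15.2% and 14.1% of all genes. The sterol enzymes MSMO1 (-0.35 ± 0.12) and SC5D (-0.50 ± 0.13) were among the lower ones. The 4 largest called changes were those of FAXDC2 (1.25 ± 0.43), at under 1 CPM in these lines, the phosphatidate phosphatase LPIN1 (-0.93 ± 0.094), ACSL4 (-0.71 ± 0.18), a relative of ACSL3, and DGAT2 (0.58 ± 0.19), which completes triglycerides. Of 11 genes of SREBP processing and sterol sensing, none was higher and 3 were lower, beside the same shares. These were RNF139 (-0.39 ± 0.095), a ubiquitin ligase of the endoplasmic reticulum, MBTPS2 (-0.29 ± 0.099), a protease that cuts SREBPs in the Golgi, and ERLIN2 (-0.23 ± 0.075). FAXDC2 kept its call in 8 of 23 alternatives and DGAT2 in 13. Of 18 genes of sterol export, uptake and the sterol receptor LXR, 1 was higher and 5 were lower, again beside 15.2% and 14.1%. The exporters ABCG1 (-1.64 ± 0.39) and ABCA1 (-0.69 ± 0.18), the lysosomal cholesterol transporter NPC1 (-1.16 ± 0.099) and the lipoprotein receptor LRP8 (-0.70 ± 0.13) had the largest called changes. NPC1 averaged 141 ± 21.2 CPM in induced Hs578 lines and 315 ± 8.01 CPM in uninduced ones (SD, n = 3 each). Of these 61 genes, none was called by edgeR or DESeq2 in TT642, where 8 had an unadjusted p under 0.05, and none net of the parental pair, where 5 had. The difference between the lines was called for 5 of the 61, beside 5.24% of all genes. They were LPIN1 (-0.96 ± 0.13), LPIN2 (-0.47 ± 0.12), RNF139 (-0.55 ± 0.14), ERLIN2 (-0.40 ± 0.11) and NPC1 (-1.01 ± 0.14). Over 22 alternatives this call was kept in 21 for LPIN1 and NPC1, in 8 for LPIN2, in 9 for RNF139 and in 7 for ERLIN2.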

How the data were processed

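The authors deposited raw read counts per gene symbol and FPKM values (fragments scaled by transcript length and library depth) for 16 libraries. Libraries were made with a stranded polyA kit, per the labels' protocols. Per the submitters' processing notes the genome build was hg19. The sources used here do not give the aligner, the annotation or the use of strand, so reads shared with pseudogenes (FDPS, SCD, CYP51A1 and HSD17B7 have some) may have been split or dropped. Of the 20114 genes, 2457 had no count. The main test was edgeR 4.0.16 under R 4.3.3 (quasi-likelihood, TMM scaling, the default filter on 8 groups, robust moderation) on 14035 genes, with 8 residual degrees of freedom and Benjamini-Hochberg adjustment. Calls are at an adjusted p under 0.05. Log2 ratios of single pairs were made with a prior count of 2. Alternatives were DESeq2 1.42.0, relative log expression scaling, no filter, robust moderation off, limma 3.58.1 on log2(FPKM + 1) and log2(FPKM + 0.1), the libraries of a line alone, a replicate block, and leaving out each library or hairpin. Scripts were tested on simulated data.

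No libraries agreed within sampling noise (lowest chi-square per degree of freedom 5.35). Same-numbered libraries of a line were treated as pairs only because their titles share a number, which was assumed to mark the same hairpin. The labels do not say that such libraries come from the same culture. The correlation of their deviations from the group means was 0.128, -0.0277 and 0.00119 for the Hs578 pairs, where it gives the pairing no support, and 0.44, 0.415 and 0.421 for the TT642 pairs. In the comparison of the lines the block was the hairpin number, which is shared only as a number.

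The 35 genes, the further lists and the tests were chosen with earlier results of these data known. Values by library are given for the SREBF, SCAP and INSIG genes, for the 12 called genes with the largest change in Hs578 and for up to 6 in each other comparison, and of further lists up to 4 called genes are named. Some genes of these pathways are not reported here.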

Additional observations from a re-analysis of the deposited data

Results flagged for a closer look

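3 genes were singled out because the effect of hairpin induction differed between Hs578 and TT642 by a test of the difference itself. The difference was -0.57 ± 0.12 on the log2 scale for SQLE (edgeR adjusted p = 0.024), -0.75 ± 0.16 for LSS (edgeR adjusted p = 0.0281) and -0.47 ± 0.13 for CYP51A1 (edgeR adjusted p = 0.0486). Within Hs578 the changes were -0.68 ± 0.082, -0.50 ± 0.11 and -0.51 ± 0.090 in the same order, and within TT642 they were -0.11 ± 0.084, 0.25 ± 0.12 and -0.042 ± 0.090. SQLE, LSS and CYP51A1 were lower in 3 of 3 induced Hs578 libraries than in any uninduced one. The same held for 20 of the 35 genes and for 21.9% of all genes tested. Net of the parental Hs578 pair the effects were -0.79 ± 0.16, 0.053 ± 0.22 and -0.12 ± 0.18, and the parental ratios of LSS and CYP51A1 were -0.55 and -0.38. Over 22 alternatives the call was kept in 13 for SQLE, 14 for LSS and 8 for CYP51A1, with adjusted p up to 0.336, 0.225 and 0.34.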

How the results depend on the processing

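The median of the 35 genes stayed below 0 under all alternatives for induction in Hs578 (-0.52 to -0.24), for induction in TT642 (-0.14 to -0.019), for the difference between the lines (-0.34 to -0.11) and net of the parental pair (-0.33 to -0.17), and above 0 between the lines (0.88 to 1.20). On log2(FPKM + 0.1) the median of all genes itself moved to -0.123 for induction in Hs578, -0.121 for the difference between the lines and -0.146 between the lines. The counts of the 35 genes called moved as follows, and the cause was not tested. In Hs578, 0 rather than 2 were higher with limma on FPKM at either pseudocount, and leaving out libraries gave 0 to 2 higher and 5 to 18 lower. In TT642, DESeq2 called 2 lower. For the difference between the lines, DESeq2 called 7 lower rather than 3, limma 8 on log2(FPKM + 1) and 5 on log2(FPKM + 0.1), the replicate block 5, and leaving out libraries gave 0 to 6 lower and 0 to 1 higher. Net of the parental pair, DESeq2 called 5 lower rather than 0, the replicate block 2, and leaving out libraries gave 0 to 2. Between the lines, leaving out libraries gave 3 to 5 lower. The replicate block moved no other count of these genes by over 1.5 times. The following signs turned, all in genes not called. SREBF1 in Hs578 ran from -0.3359 to 0.0728 over the left-out libraries, positive without hairpin 3 (0.0455) or its induced library. SREBF2 ran from -0.0757 to 0.042, positive without hairpin 3 (0.0368), its induced library or the uninduced hairpin 2 library (0.0029). SCAP ran from -0.0044 (without hairpin 1) to 0.142 and was -0.2041 and -0.2141 on log2(FPKM + 1) and log2(FPKM + 0.1). CYP51A1 in TT642 ran from -0.0919 to 0.011, positive without hairpin 2. Net of the parental pair, LSS ran from -0.0297 (without hairpin 2) to 0.1339. Between the lines, FADS1 ran from -0.0208 to 0.074 over the left-out libraries and was -0.247 and -0.2497 on the FPKM scales, where ELOVL5 was -0.1625 and -0.164.

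Over all genes, DESeq2 called 42 higher and 34 lower in TT642 (the block 24 and 22) beside 2 and 2, 657 and 737 for the difference between the lines (the block 875 and 888) beside 387 and 348, and 161 and 134 net of the parental pair (the block 86 and 54) beside 41 and 16. Without hairpin 3 the counts were 376 and 464 for induction in Hs578, 0 and 2 for the difference and 0 and 0 net of the parental pair. With 3 libraries per group and 1 parental library per condition, small changes of genes at low counts (TM7SF2, HSD17B7 and ME1 in TT642) were not detectable.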

Other observations

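Genes of fatty acid oxidation, the opposite of the synthesis described above, changed in both directions in induced Hs578 lines. Of 21 tested, 6 were higher and 2 lower, beside 15.2% and 14.1% of all genes. ETFB, an electron carrier of the pathway, averaged 70.8 ± 14.9 CPM in induced lines and 38.5 ± 2.39 CPM in uninduced ones (SD, n = 3 each; log2 change 0.88 ± 0.14, edgeR adjusted p = 0.000786), and ACADVL, the dehydrogenase of very long chains, 337 ± 30.8 CPM and 232 ± 8.43 CPM (0.54 ± 0.080, edgeR adjusted p = 0.000648). CPT1A, which admits fatty acids to mitochondria, fell to 114 ± 12.2 CPM in induced lines, against 157 ± 8.53 CPM in uninduced ones (-0.46 ± 0.096, edgeR adjusted p = 0.00349). None of the 21 was called in TT642, where 1 had an unadjusted p under 0.05 and DESeq2 called none. The difference between the lines was called for ETFB (0.76 ± 0.19) and ACADM (-0.49 ± 0.12), beside 5.24% of all genes, and was kept in 10 and 9 of 22 alternatives.

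Between uninduced lines, 10 of these 21 genes were lower in Hs578 and 6 higher, beside 39.7% and 41% of all genes. HADHA and HADHB, the subunits of the trifunctional protein, averaged 242 ± 2.93 and 110.1 ± 3.74 CPM in Hs578 lines, against 572 ± 31.2 and 245 ± 12.5 CPM in TT642 lines. The brain form of the carnitine transferase, CPT1C, averaged 0.253 ± 0.144 CPM in Hs578 lines and 65.9 ± 3.96 CPM in TT642 lines. Of 4 tested adipocyte markers, FABP4 (-1.24 ± 0.37) and PLIN4 (-0.86 ± 0.27) were lower in induced Hs578 lines, at 0.601 ± 0.164 and 3.23 ± 0.708 CPM, against 1.45 ± 0.256 and 5.83 ± 1.27 CPM in uninduced ones, beside 14.1% of all genes called lower. LIPE (0.53 ± 0.36) and PPARG (-0.28 ± 0.16) were not called. FABP4 kept its call in 14 of 23 alternatives, not with DESeq2, and PLIN4 in 17.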
